A study of Mus musculus with 1 sample.

Results

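CD3-positive blood T cells for which no T cell receptor (TCR) clonotype had been assigned were described in 1 vehicle-treated mouse with small cell lung cancer (SCLC). The members were chosen by values of the deposited files: at least 1330.88 UMIs in all (UMIs are sequence tags, 1 for each RNA molecule caught), at least 10% of the UMIs on ribosomal protein genes, at least 2 UMIs of Cd3d, Cd3e and Cd3g together, no UMI of the B cell gene Cd79a, and no contig of a called cell that carried a clonotype. The rule found 72 members among 876 CD3-positive cells, a share of 8.22% (exact 95% binomial interval 6.49% to 10.2%), and among 1600 barcodes that reached the UMI limit, which was set from the 3000 largest barcodes by dividing the 99th percentile of their totals by 10. The other 804 CD3-positive cells had a clonotype and are the clonotyped cells to which the members were compared. B cells (59 cells with at least 2 Cd79a UMIs and no CD3 UMI under the same limits on UMIs and ribosomal genes) were used as a background of free RNA. Barcodes with a CD3 UMI were left out of them, so they may understate free RNA of T cells.

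The mouse belonged to the autochthonous SCLC model on a C57BL/6 background, in which conditional deletion of Rb1 and Trp53 is started in lung cells by Cre from an adenovirus given into the trachea. Animals of the study were at least 6 weeks old, and this mouse received the vehicle PBS. T cells were enriched from 150 µl of its blood by negative selection with a Pan T cell isolation kit, after lysis of red cells, so no sort for a receptor type was made. Gene expression and TCR sequencing from the 5′ end of the RNA were read from the same droplet barcodes in 1 library of each kind. A single mouse gives no error between replicates, and no test could be made, so intervals cover counting error only (exact binomial for shares, exact Poisson for UMI sums) and differences between groups of cells are differences within this library. The libraries of other mice were not analysed here.

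A T cell binds antigen through paired receptor chains that are held at the membrane by the CD3 proteins. Each chain is assembled in the thymus by joining a V gene, in beta and delta chains also a D gene, and a J gene to a constant gene. Most T cells of the blood carry an alpha and a beta chain, together with the coreceptor CD4 or CD8. Gamma delta T cells carry a gamma and a delta chain, mostly lack both coreceptors and are known for fast responses at barrier tissues and in tumours. The delta locus lies within the alpha locus, so that some V genes can be used by either chain, and clonotypes of the kind deposited here are built from alpha and beta chains.

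The label was checked on its marker genes. Cd3e, a CD3 chain, was found in 66 of the 72 members at 9.32 UMIs per 10000 (8.31 to 10.4) and stood at 9.47 in clonotyped cells. CD3 UMIs were part of the rule, and their summed level was 24.1 per 10000 in members and 25.1 in clonotyped cells. Trbc2, a constant gene of the beta chain, was found in 43 members, and Trdc, the constant gene of the delta chain, in 20. The constant gene of a gamma chain, Tcrg-C1, was found in 11 members. No marker of the label was absent, and none but Cd3e was found in nearly all members. On the build GRCm38 the delta constant gene Trdc lies at chr14:54142851-54146108 and the alpha constant gene Trac at chr14:54220521-54224198. Trbc1 and Trbc2 lie at chr6:41538219-41539665 and chr6:41546730-41548181, and Tcrg-C1 at chr13:19214103-19216618.

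Members lay close to the limits of the rule in some cases. The lowest totals were 1410 and 1435 UMIs, and the nearest cell outside had 1293. The lowest ribosomal shares were 10.1% and 10.2%, against 9.61% and 9.52% just outside, and 214 further cells were left out by this limit alone. Exactly 2 CD3 UMIs were found in 5 members, while 6 cells with 1 CD3 UMI and 21 with none met the other conditions.

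Receptor junctions assembled from members are shown first, since they tell which members shared a junction with a barcode called a cell in the contig table. A contig is an assembled receptor RNA, and its junction is the stretch that joins V to J. Productive contigs, those that can code for a whole chain, were present in 34 members and gave 48 junctions of 33 to 51 bases (median 42). A further 13 junctions of 11 members came from non-productive contigs. No member was called a cell in the contig table. The same V gene and junction as in a called cell was found for 7 of the 48 productive junctions, in 5 members, and for none of the 13 non-productive ones. Members are numbered by total UMIs, from cell 1 with 17120 to cell 72 with 1410. These 7 junctions are printed 5′ to 3′ as the deposited contig table gives them. Capitals mark the bases between the V end and the J end, where each end is the stretch shared with other contigs of that V or J gene.
cell 27, TRBV15: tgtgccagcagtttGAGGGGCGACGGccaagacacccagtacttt
cell 27, TRBV12-2+TRBV13-2: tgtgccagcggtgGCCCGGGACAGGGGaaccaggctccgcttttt
cell 54, TRBV29: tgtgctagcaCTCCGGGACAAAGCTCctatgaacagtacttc
cell 54, TRAV5-4: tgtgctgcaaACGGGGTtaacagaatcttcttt
cell 36, TRAV3N-3: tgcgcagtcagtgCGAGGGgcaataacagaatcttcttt
cell 40, TRAV13-1: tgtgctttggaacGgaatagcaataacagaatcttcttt
cell 61, TRAV14-3: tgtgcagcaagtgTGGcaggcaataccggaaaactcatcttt

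Cell 27 had 24 UMIs of its TRBV15 contig and 18 of its TRBV12-2+TRBV13-2 contig. The former was found in 5 called cells and the latter in 3, all of 1 clonotype of 5 cells. In cell 54 both chains, with 6 UMIs for beta and 3 for alpha, were those of 1 clonotype that had 1 called cell. Their contigs rested on 157 and 93 reads, whereas the contigs of cells 27, 36, 40 and 61 printed above rested on 2209 to 44052. Alpha junctions alone matched in cells 36, 40 and 61, each with 2 UMIs, and were found in 1, 4 and 1 called cells. These alpha junctions held 6, 1 and 3 bases between the shared V and J ends, whereas the beta junctions of cells 27 and 54 held 12, 14 and 16.

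A second set shows the members with 2 productive beta contigs of at least 2 UMIs each, as 1 barcode with more than 1 beta chain may hold more than 1 cell. Such members were cell 27 above and cells 1, 18 and 39, 4 of 72 (5.56%, 1.53% to 13.6%), against 31 of 804 clonotyped cells (3.86%, 2.63% to 5.43%). No doublet caller was run, and whether these barcodes held more than 1 cell was not tested.
cell 1, TRBV17: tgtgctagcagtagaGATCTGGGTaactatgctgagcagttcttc
cell 1, TRBV29: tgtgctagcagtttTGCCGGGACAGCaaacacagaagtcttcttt
cell 18, TRBV14: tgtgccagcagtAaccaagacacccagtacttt
cell 18, TRBV3: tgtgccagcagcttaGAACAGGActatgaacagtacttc
cell 39, TRBV19: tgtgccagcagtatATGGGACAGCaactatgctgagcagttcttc
cell 39, TRBV13-3: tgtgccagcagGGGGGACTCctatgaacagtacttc

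The contigs of cell 1 had 24 and 9 UMIs, those of cell 18 had 23 and 15, and those of cell 39 had 7 and 6. None of these 6 junctions was found in a called cell, whereas both beta junctions of cell 27 were found together in 3 called cells. Cell 1 also carried 3 productive alpha contigs and had the highest UMI total of all members.

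The share of CD3-positive cells without a clonotype was highest among cells with few UMIs. It was 37.5% (12 of 32 cells, 21.1% to 56.3%) below 2000 UMIs and 15.7% (16 of 102) from there to below 3000 UMIs. It was 7.76% (9 of 116) from 3000 to below 4000 UMIs, 7.73% (17 of 220) from 4000 to below 6000 UMIs, and 4.43% (18 of 406, 2.65% to 6.92%) above that. The intervals of the lowest and the highest bin did not overlap. The median was 3781 UMIs in members and 5744 in clonotyped cells. By coreceptor RNA, the share was 4.07% (9 of 221) among cells with Cd4 only and 6.46% (32 of 495) among cells with Cd8a or Cd8b1 only. Among cells with neither coreceptor it was 22.2% (28 of 126, 15.3% to 30.5%), above the intervals of the Cd4 and the CD8 cells. Of these 28 members, 13 had at least 2 Trdc UMIs. Without such cells the share was 13.3% with neither (7.62% to 20.9%) and 6.09% with CD8 only (4.14% to 8.57%), with overlapping intervals. This order did not hold at like depth: among cells of 2000 to 4000 UMIs the share was 4.60% (4 of 87) with Cd4 only, 18.6% (11 of 59, 9.69% to 30.9%) with CD8 only and 13.8% (8 of 58, 6.15% to 25.4%) with neither. Bins of beta chain RNA were not read at like depth, with medians from 4067.5 to 7635 UMIs. The share was 14.0% (23 of 164) in cells without a Trbc1 or Trbc2 UMI and between 5.13% and 7.77% in cells with 1, with 2 to 3 or with at least 4. The summed level of Trbc1 and Trbc2 was 4.54 per 10000 in members (3.84 to 5.33) and 3.89 in clonotyped cells (3.72 to 4.06), with overlapping intervals.

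**Figure D1:**
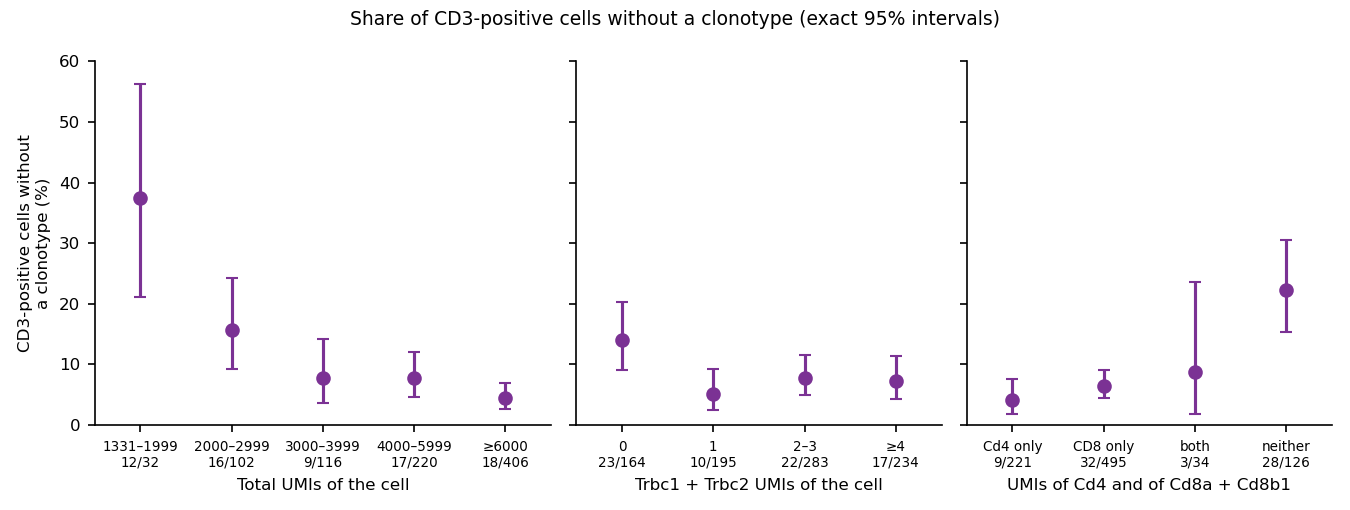
Share of CD3-positive cells without a clonotype (%, y axis) by total UMIs, by Trbc1 and Trbc2 UMIs and by coreceptor RNA of the cell (x axes, with members over cells below each bin); points are shares and bars exact 95% binomial intervals. The share falls from 37.5% in the bin of fewest UMIs to 4.43% in the bin of most UMIs, and is 22.2% in cells with neither Cd4 nor CD8 RNA, though not above CD8 cells among cells of 2000 to 4000 UMIs (13.8% and 18.6%).

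Trdc RNA was found in part of the members. At least 2 Trdc UMIs were found in 15 of 72 members (20.8%, 12.2% to 32.0%) and in 5 of 804 clonotyped cells (0.622%, 0.202% to 1.45%). They were found in 0 of 59 B cells, for which a floor of 3 cells gives 5.08% and the exact binomial upper limit is 6.06%. B cells had a median of 4151 UMIs. These 15 cells are called Trdc-positive, and the remaining 57 the other members. The 15 cells held 8, 8, 7, 6, 6, 5, 5, 4, 4, 3, 3, 2, 2, 2 and 2 Trdc UMIs, and 5 of the other members held 1 each. Pooled over cells, Trdc stood at 2.19 per 10000 in members (1.72 to 2.76) and at 0.0439 in clonotyped cells (0.0278 to 0.0659).

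The Trdc-positive members were deep cells, with a median of 6662 UMIs (3630 to 10564) against 3083 in the other members. None of the 28 members under 3000 UMIs was Trdc-positive, and neither was any of the 106 clonotyped cells of that depth. From 4000 to below 6000 UMIs the share was 35.3% (6 of 17) in members and 0 of 203 in clonotyped cells. At 6000 UMIs and more it was 44.4% (8 of 18, 21.5% to 69.2%) in members and 1.29% (5 of 388, 0.420% to 2.98%) in clonotyped cells. After every cell was thinned to the UMI limit, rounded up, at least 1 Trdc UMI remained in 12 of 72 members (16.7%, 8.92% to 27.3%) and in 4 of 804 clonotyped cells (0.498%, 0.136% to 1.27%), and none in B cells. Before thinning these numbers were 20 members (27.8%) and 10 clonotyped cells (1.24%). At least 2 Trdc UMIs remained after thinning in 3 of 72 members (4.17%, 0.868% to 11.7%) and in 2 of 804 clonotyped cells (0.249%, 0.0301% to 0.896%), with intervals that overlapped slightly. Without thinning, in both bins from 4000 UMIs the interval of the members lay above that of the clonotyped cells.

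Gamma delta V genes, which the rule and the Trdc limit did not use, were found in the Trdc-positive members. A gamma V gene had a UMI in 13 of 15, a delta V gene or a V gene shared by alpha and delta chains in 12, and a gamma constant gene in 11. The level of gamma V genes was 10.1 per 10000 (8.20 to 12.3), against 1.34 in the other members and 0.445 in clonotyped cells. Trgv2, at chr13:19336573-19337026, led the gamma V genes in 7 cells, Tcrg-V1 in 4 and Tcrg-V3 in 2. Trgv2 was also found in 60 of the 804 clonotyped cells, and without it the gamma V level was 4.94 per 10000 in Trdc-positive members and 0.0840 in clonotyped cells. Delta V genes stood at 7.11 per 10000 (5.53 to 8.99), against 0.952 in the other members and 0.176 in clonotyped cells. Trdv2-2 led them in 3 cells, Trdv4 in 3 and Trdv5 in 1, and 8 cells had no delta V UMI. Trdv4, at chr14:54075004-54075515, had 36 UMIs in 3 Trdc-positive members and none in the clonotyped cells. With 3 UMIs over the clonotyped cells taken as the floor the ratio was 648, and the lower limit of its interval was 500. These 36 UMIs lay at 18, 12 and 6 per cell.

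Alpha and beta V genes were lower in the same cells. Members were chosen for lacking a clonotype, which is built from alpha and beta chains. The gap to clonotyped cells was therefore set in part by that choice. Beta V genes stood at 1.03 per 10000 in Trdc-positive members (0.494 to 1.89), 8.61 in the other members and 15.03 in clonotyped cells. Alpha V genes that are not shared with delta stood at 0.309, 1.73 and 4.05. Trac was at 0.618 (6 UMIs in 4 cells), against 1.64 in the other members and 1.40 in clonotyped cells. Beta constant RNA did not follow the beta V genes. A Trbc1 or Trbc2 UMI was found in 14 of 15 Trdc-positive members, and their summed level was 5.15 per 10000 (3.82 to 6.79). Trbc1 held 26 of these 50 UMIs (52.0%, 37.4% to 66.3%), against 18 of 99 (18.2%, 11.1% to 27.2%) in the other members and 670 of 2036 (32.9%, 30.9% to 35.0%) in clonotyped cells. Trbc1 and Trbc2 are nearly identical, so the split of reads between them is uncertain. Among contigs without a V gene, described in the next paragraph, TRBC1 was the constant gene of 5 of 22 in Trdc-positive members (22.7%, 7.82% to 45.4%) and of 8 of 21 in the other members (38.1%, 18.1% to 61.6%), the opposite order, with overlapping intervals. Coreceptor RNA was absent from 13 of 15 Trdc-positive members (86.7%, 59.5% to 98.3%) and from 98 of 804 clonotyped cells (12.2%). After thinning these numbers were 14 of 15 and 254 of 804 (31.6%). The 2 exceptions, cells 4 and 23, had 8 UMIs of Cd8b1 each, the CD8 beta chain, and none of Cd8a, the CD8 alpha chain.

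**Figure D2:**
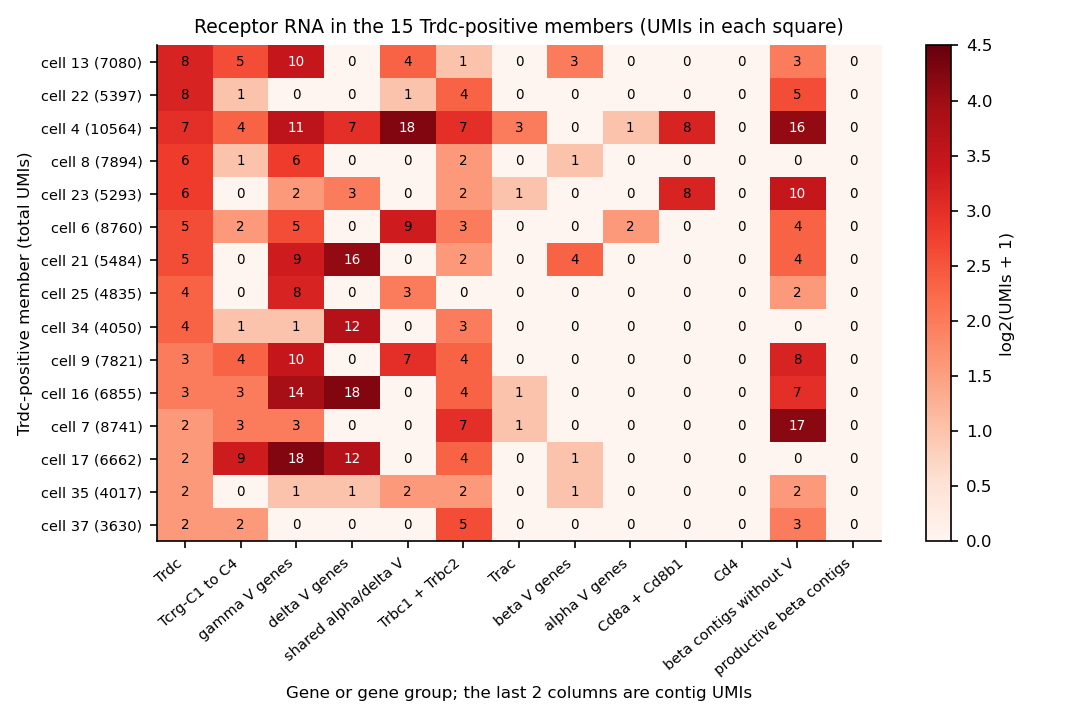
UMIs of receptor genes, of gene groups, of coreceptors and of beta contigs (columns) in each of the 15 Trdc-positive members (rows, with total UMIs in brackets); numbers are UMIs and the colour is log2(UMIs + 1). Gamma V UMIs are present in 13 rows, Trbc1 or Trbc2 UMIs in 14 and beta contigs without a V gene in 12, while the column of productive beta contigs is 0 throughout.

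The Trdc-positive members had contigs, but no productive one. None had a productive alpha or beta contig, 13 of 15 had non-productive contigs only and 2 had no contig. Of their 27 contigs, 22 joined a beta J gene to a beta constant gene without a V gene, and these 22 held 81 UMIs with a median of 3. Such contigs were present in 12 of 15 Trdc-positive members (80.0%, 51.9% to 95.7%), in 17 of 57 other members (29.8%, 18.4% to 43.4%) and in 260 of 804 clonotyped cells (32.3%, 29.1% to 35.7%). The 59 B cells had none. No such contig carried a D gene or a junction in any group. A single junction was found among the Trdc-positive members, in a non-productive beta contig of 2 UMIs in cell 35, and is shown because it was the only junction given for these cells. No called cell had it.
cell 35, TRBV3: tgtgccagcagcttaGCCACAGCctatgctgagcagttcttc

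Contigs of the 57 other members included productive alpha and beta contigs, mostly with few UMIs. As the contig table is built for alpha and beta chains, the chain of a contig does not tell the type of the cell. A productive contig was present in 34 (59.6%, 45.8% to 72.4%), of high confidence in 12 and of low confidence only in 22. Non-productive contigs alone were found in 11, and 12 had no contig. The best productive beta contig had a median of 2 UMIs in the 23 other members that had one (1 to 24). In 787 clonotyped cells the median was 9 (1 to 66). Members lacked a clonotype by the rule, so this difference was set in part by that choice. In 28 of the 57 cells the total was under 3000 UMIs. None of the gamma delta constant and V genes or shared V genes had a UMI in 42 of the 57. At least 2 gamma V UMIs without Trdc were found in 2 of them. Cell 11 had 13 gamma V UMIs, 2 delta V UMIs and a beta contig without a V gene of 15 UMIs. Cell 27, whose beta junctions are printed above, had 9 Trgv2 UMIs and 11 CD8 UMIs.

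**Figure D3:**
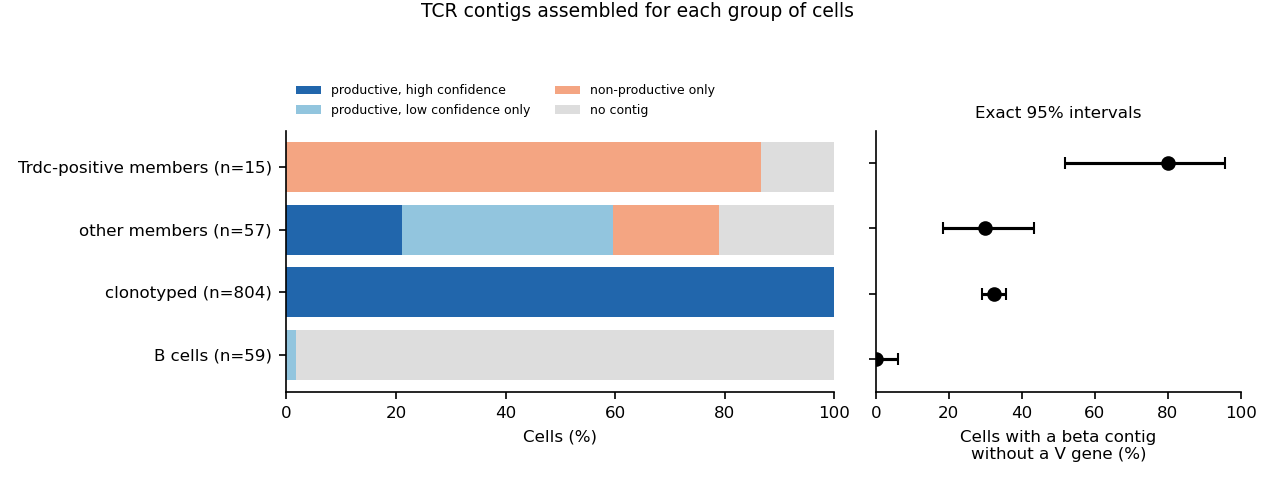
TCR contigs of Trdc-positive members, other members, clonotyped cells and B cells: the stacked bars give the share of cells (%) by their best contig, and the points the share of cells (%) with a beta contig without a V gene, with exact 95% binomial intervals. Productive contigs are present in 59.6% of the other members and in no Trdc-positive member, and the beta contig without a V gene is present in 80.0% of the Trdc-positive members; the clonotyped bar is fixed by the rule.

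Members and clonotyped cells were then compared gene by gene. A gene was tested when both groups together held at least 50 UMIs, and was past 2-fold when its UMIs per 10000 differed at least 2-fold. Of 8282 genes, 191 (2.31%) were past 2-fold higher in members and 504 (6.09%) past 2-fold lower. The median ratio was 1.01, which scaling each group to its own UMI total holds near 1. Of the 504 lower genes, 44 had no UMI in members and 360 had 1 to 3, so only 100 rested on more than 3 UMIs. For 112 of them the Poisson interval of the ratio lay below 1, and for 130 of the 191 higher genes it lay above 1. Of the 191 higher genes, 39 had under 50 UMIs in clonotyped cells and so were tested only because of the UMIs in members. Within cells of 2000 to 4000 UMIs, 44 of 2330 genes were past 2-fold higher and 233 lower.

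The lists of proximal TCR signalling and of naive T cells held no gene past 2-fold. In the list of proximal TCR signalling 0 of 12 genes were past 2-fold in either direction (median ratio 0.890). Cd247, the zeta chain of the receptor complex, stood at 4.51 per 10000 in members and 3.98 in clonotyped cells, and Thy1, a T cell surface protein, at 8.17 and 7.59. In the naive list, 0 of 10 genes were past 2-fold (median ratio 0.936). In the memory list 1 of 10 was higher (median ratio 1.29). It was Cxcr6, a chemokine receptor of tissue-homing T cells, with 41 UMIs in 12 members, a ratio of 2.69 (1.89 to 3.76). Of these UMIs 29 lay in 5 cells described at the end, and the remaining members stood at 0.402 per 10000, against 0.464 in clonotyped cells. The gamma delta list had 5 of its 12 genes past the UMI minimum, all of them higher in members, but Trdc, Cd163l1 and Tcrg-C2 reached it only through the members. The other 2 were Trgv2 (ratio 6.42, 4.85 to 8.42) and the transcription factor Maf (2.43, 1.34 to 4.14). The 5 cells described at the end held 9 of the 16 Maf UMIs. In the other 57 members the Maf ratio was 1.30 (0.465 to 2.92), which is under 2-fold. Of the 3 regulatory T cell genes tested, Ikzf2 had a ratio of 2.01, Foxp3, the factor that defines regulatory T cells, of 2.09 (0.865 to 4.39) and Ctla4, an inhibitory receptor, of 0.678 (0.306 to 1.31). The 8 Foxp3 UMIs came from 2 of the other members, whereas 30 of the 41 Ikzf2 UMIs lay in Trdc-positive members. In the other members the Ikzf2 ratio was 0.767 (0.379 to 1.39). Il2ra and Ikzf4, which were under the UMI minimum, had 2 and 0 UMIs in members. Of the coreceptor genes, Cd8a had a ratio of 0.497 (0.370 to 0.656), Cd8b1 of 0.728 and Cd4 of 0.508, so that Cd8a alone was past 2-fold. In the other 57 members the ratios were 0.706, 0.959 and 0.722. Zbtb7b, a transcription factor of CD4 T cells, had 1 UMI in members and 54 in clonotyped cells. Among 4 immediate early genes tested, Dusp1, a phosphatase, was past 2-fold higher with 14 UMIs in 8 members (2.30, 1.21 to 4.06). None of the 3 genes tested was past 2-fold in the innate-like T cell list, in that of innate lymphoid cells or in that of monocytes, and the same held for the 3 nuclear and the 3 cytoplasmic RNAs and for Stmn1, the 1 cycling gene tested.

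Other cell types were looked for with lists of their markers. The NK cell list stood at 10.7 UMIs per 10000 in members, at 10.4 in clonotyped cells and at 15.04 (12.7 to 17.7) in Trdc-positive members, a ratio of 1.45 to clonotyped cells. Of its 9 genes, Ncr1, an activating receptor of NK cells, Tyrobp, an adaptor that myeloid cells also express, and Klra8 had 0 UMIs in members. Klrb1c, which codes for the NK cell marker NK1.1, had 7 UMIs in 2 members, both Trdc-positive and 6 of the UMIs in 1 cell, against 36 UMIs in clonotyped cells, a ratio of 3.10 (1.17 to 7.07). The most abundant gene of that list was Nkg7, a granule protein that T cells also express, with 273 of its 350 UMIs. B cell genes summed to 1.62 per 10000 in members, 1.71 in clonotyped cells and 321 in B cells. The neutrophil, basophil and thymic rearrangement lists had 0 UMIs in members, the platelet and the SCLC tumour list 3 each and the erythroid list 6. The nuclear RNA Malat1 was at 98.1 per 10000 in members and 76.0 in clonotyped cells. It was at 113 in the other members and 63.3 in the Trdc-positive ones. Mitochondrial genes held a median of 2.00% of UMIs in the other members, 1.19% in Trdc-positive members and 1.45% in clonotyped cells. The part of RNA quality in the results was not tested.

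The highest and lowest ratios were taken among genes with UMIs in at least 5 cells of the higher group and no cell with over 33.3% of its UMIs, leaving out receptor, immunoglobulin, mitochondrial and ribosomal protein genes. Some genes with high ratios, such as Cd163l1 (35.3) and Aqp3 (5.78), did not meet these conditions. The genes at the high end that met them were led by Tmem176b, a membrane protein, with 38 UMIs in 6 members and 13 UMIs in 9 clonotyped cells, a ratio of 46.7 (24.3 to 95.5). The next were Gm43647 (3.91), Actn2 (3.75), Tmem167b (3.74), Ankrd27 (3.62), Acsbg1 (3.45), Ttc39c (3.39), Orc6 (3.11), Arrb1 (3.09) and Cd79b (3.08), each with 11 to 24 UMIs in members. Tmem176b, Gm43647 and Tmem167b, with 13, 49 and 47 UMIs in clonotyped cells, reached the UMI minimum only through the members, so their place here was set in part by that minimum. Among cells of 2000 to 4000 UMIs, Tmem176b and Actn2 had no UMI in members, and Acsbg1 had 1. Trdc-positive members held 10 of the 12 Gm43647 UMIs and 8 of the 11 Tmem167b UMIs. In the other members these genes stood at 0.0866 and 0.130 per 10000, against 0.0935 and 0.0897 in clonotyped cells. Ankrd27, Ttc39c, Orc6, Arrb1 and Cd79b had most of their UMIs in the other members.

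At the low end stood Gzma, the serine protease granzyme A of cytotoxic granules, with a ratio of 0.168 (0.0456 to 0.434). It had 4 UMIs in 2 of 72 members and 380 in 31 of 804 clonotyped cells. Few cells of either group held Gzma, and the interval counts UMIs of 1 cell as independent. Isg15, which codes for a ubiquitin-like protein, had 3 UMIs in members and 261 in clonotyped cells, a ratio of 0.184 (0.0376 to 0.542). Ifit1 had 3 and 197 UMIs (0.243), Ifit3 had 3 and 182 (0.263), and Herc6 had 6 and 341 (0.281, 0.102 to 0.618). The other low genes were Nrgn, Acsl4, Hspbap1, Fdx2 and Tsc22d1, with 2 to 4 UMIs each in members. Of cytotoxic genes, Gzmk had 27 UMIs in 6 members (ratio 0.915), Prf1, the pore protein perforin, 20 in 14 members (1.18), and Ccl5, a chemokine, 1615 in 29 members (1.19). Among cells of 2000 to 4000 UMIs the ratio was 0.50 for Gzma, 0.262 for Isg15, 0.578 for Ifit1 and 0.322 for Herc6, on 1 to 4 UMIs in members, and Ifit3 had no UMI in members.

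Compared on their own with clonotyped cells, the 15 Trdc-positive members had 670 of 8179 genes (8.19%) past 2-fold higher and 1496 (18.3%) lower. Of the lower genes 822 had no UMI in these cells and 631 had 1 to 3. The Poisson interval of the ratio lay above 1 for 208 of the higher genes and below 1 for 99 of the lower ones. Among the higher genes 33 had under 50 UMIs in clonotyped cells. In the other members 265 of 8239 genes (3.22%) were higher and 780 (9.47%) lower. In the Trdc-positive members 4 of 10 memory genes were higher: Cxcr6 (ratio 4.66, 2.84 to 7.29), Ahnak (2.22, 1.72 to 2.82), the chemokine receptor Cxcr3 (2.18, 1.28 to 3.49) and Ly6c2 (2.07, 1.75 to 2.43). Of the 21 Cxcr6 UMIs, 14 lay in cells 16 and 17, and in the remaining 13 cells Cxcr6 stood at 0.838 per 10000 against 0.464 in clonotyped cells, which is under 2-fold. Klrk1, which codes for the activating receptor NKG2D, stood at 3.30 per 10000 (2.25 to 4.65) against 0.216 in the other members and 0.628 in clonotyped cells. It was found in 9 of the 15 cells. Il2rb, a receptor chain for interleukin 2 and interleukin 15, stood at 4.53, 1.47 and 2.31, and Il7r, the receptor for interleukin 7, at 14.5, 9.69 and 9.95. Ikzf2, a transcription factor, had a ratio of 4.98, with 14 of its 30 UMIs in 1 cell.

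Of 10 naive genes, 2 were past 2-fold lower in Trdc-positive members, Igfbp4 (ratio 0.380) and Dapl1 (0.243), a share near the 18.3% of all tested genes that were lower there. Lef1 and Ccr7, a transcription factor and a lymph node homing receptor of naive T cells, stood at 0.516 and 0.562 of the clonotyped level. Cd5, an inhibitor of receptor signalling, had 4 UMIs in 2 cells, a ratio of 0.196 (0.0532 to 0.502). Cd4 and Cd8a had no UMI in the 15 cells and 534 and 1669 UMIs in clonotyped cells. The Cd8a ratio was 0.097 with 3 UMIs as the floor, and the upper limit of its interval was 0.119. Gzma, Gzmb and Gzmk, the granzymes, had no UMI either. For Gzmb the upper limit of the ratio was 1.29, so its absence does not show a lower level. Gzma was found in only 31 of 804 clonotyped cells, so its absence from 15 cells shows little. Nkg7 stood at 9.68 and Ccl5 at 47.1 per 10000, against 8.58 and 41.4 in clonotyped cells. Ifi27l2a, an interferon-induced gene outside the rule for named genes and chosen after its values were seen, had 0 UMIs in the 15 cells, 72 in 26 of the other members and 1928 in 442 clonotyped cells. Other interferon-induced genes varied. Irf7 had 7 UMIs in 5 of the 15 cells, at 0.721 per 10000 against 0.847 in clonotyped cells. Xaf1 had 4 UMIs, Isg15 had 2, Ifit3 and Herc6 had 1 each, and Ifit1 and Ifit2 had 0.

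**Figure D4:**
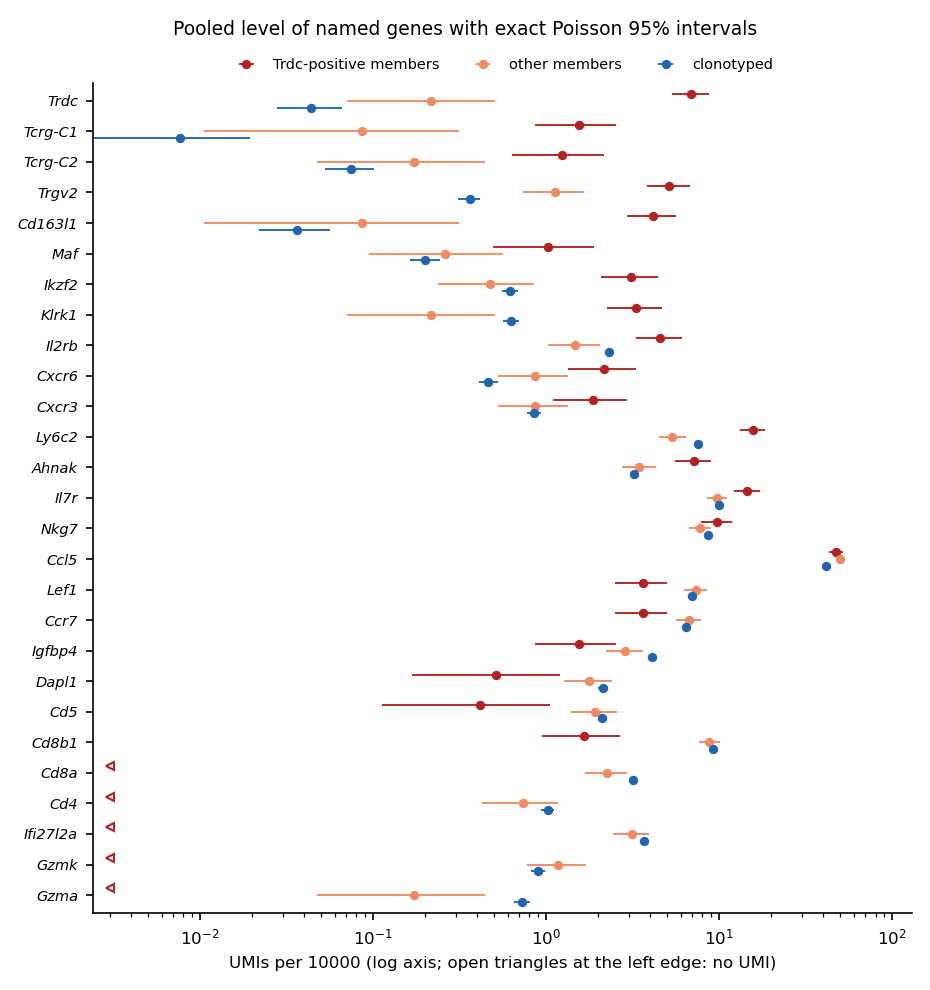
Pooled level (UMIs per 10000, log x axis) of named genes (y axis) in Trdc-positive members, other members and clonotyped cells; points are pooled levels, bars exact Poisson 95% intervals, and open triangles at the left edge mark genes without a UMI. Trgv2 and Klrk1 are highest in Trdc-positive members, where Trdc (6.90) is high by the choice of the cells, while Cd8a, Cd4, Ifi27l2a, Gzmk and Gzma had no UMI there.

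A group of 5 members was chosen after values of these data were seen. They are the members with RNA of Zbtb16, the transcription factor PLZF of innate-like lymphocytes. Zbtb16 was also found in 5 of the 804 clonotyped cells and in 1 of the 59 B cells. The Zbtb16 UMIs were 1, 3, 5, 1 and 1 in cells 11, 16, 17, 26 and 32, so that the choice of 3 of them rested on 1 UMI. Cells 16 and 17 were Trdc-positive, cells 26 and 32 had 1 Trdc UMI each and cell 11 had none. All 5 had a gamma V UMI, and their totals were 4097 to 7301 UMIs. Cell 26 also had 2 CD8 UMIs. Cell 32 had 1 CD8 UMI and 2 productive beta contigs of 1 UMI each.

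The 5 cells held all UMIs that members had of Sox13 (9), a transcription factor of gamma delta T cells, of Il23r (16), a receptor chain for interleukin 23, of Blk (16), a Src family kinase, of Cd163l1 (42), a scavenger receptor, and of the gamma V gene Tcrg-V6 (13). They also held 32 of 38 Tmem176b UMIs, 30 of 36 Trdv4 UMIs, 29 of 41 Cxcr6 UMIs and 64 of 79 UMIs of S100a4, a calcium-binding protein. Not all of these genes were shared by the 5 cells. Tcrg-V6 (6 and 7 UMIs) and Trdv4 (18 and 12) were found in cells 16 and 17 alone, which also held 25 and 15 of the 42 Cd163l1 UMIs, and 38 of the 64 S100a4 UMIs lay in cell 11. Sox13 and Il23r were found in 4 of the 5, all but cell 11, and Tmem176b in all but cell 32. The clonotyped cells, with many more UMIs, held 0 UMIs of Sox13 and Blk, 1 of Il23r, 7 of Zbtb16 and 19 of Cd163l1. Nkg7, Ccl5 and Ly6c2 had no UMI in the 5 cells. Il17a, the gene of interleukin 17A, had no UMI in any member or clonotyped cell.

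The remaining 13 Trdc-positive members differed from the 5 cells in Nkg7, Ccl5 and Ly6c2. Absence of Nkg7 was also common among the other members outside the 5 cells, though most of those without it had fewer UMIs in all. Nkg7 was found in all 13, with 1 to 15 UMIs per cell (median 6), Ccl5 in 11 (0 to 87, median 27) and Ly6c2 in 11 (0 to 24, median 11). Cd163l1 had no UMI in them, nor in cells 26 and 32 of the 5. The pooled level of Klrk1 did not separate them, at 3.23 per 10000 in the 13 cells and 3.37 in the 5. These levels rested on few cells: 1 of the 13 held 13 of their 27 UMIs, and cell 32 held 5 of the 10 UMIs of the 5. Il2rb was found in 11 of the 13 and 3 of the 5, and Cxcr6 in 4 of the 13 and in all 5. As the 5 cells were chosen by Zbtb16 in these data, the contrast is a description of 18 cells of 1 mouse.

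**Figure D5:**
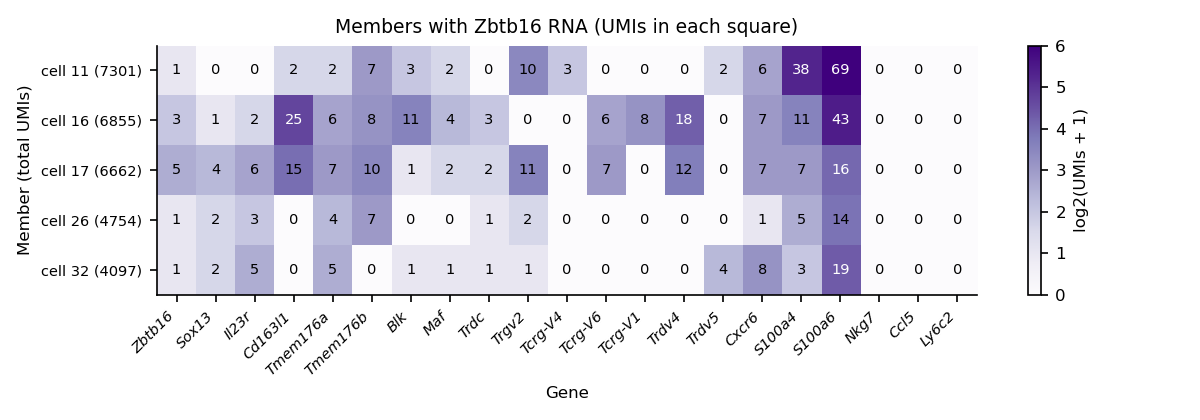
UMIs of named genes (columns) in the 5 members with Zbtb16 RNA (rows, with total UMIs in brackets); numbers are UMIs and the colour is log2(UMIs + 1). Tmem176a and S100a4 are present in every row, while Nkg7, Ccl5 and Ly6c2 are at 0 in every row.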

How the data were processed

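Gene expression and TCR libraries of blood T cells from 1 vehicle-treated mouse were analysed. The authors processed the reads with Cell Ranger (version 4 per the file headers, build GRCm38 per the labels) and deposited UMI counts of every gene in every barcode, raw and not filtered for cells, and a contig table with read and UMI counts, genes, junctions and clonotypes per contig. No doublets were removed. Counts were pooled over the cells of a group and divided by the group's UMIs, as UMIs per 10000. Genes with at least 50 UMIs in both groups together were compared, and a ratio of at least 2 or at most 0.5 counted as past 2-fold. For printed ratios, list medians and the order of genes, a count under 3 was set to 3, while counts of genes past 2-fold used the counts as they stood. Named genes were all genes of the marker lists and, by ratio, the 10 highest and 10 lowest with UMIs in at least 5 cells of the higher group and no cell with over 33.3% of its UMIs, leaving out TCR, immunoglobulin, mitochondrial, ribosomal and selecting genes. Some named genes are not reported here. The members and lists were chosen with earlier results of these data known. Gene positions came from the RefSeq annotation of GRCm38.p6. Analyses used Python 3.11.15 with numpy 2.4.6, pandas 2.3.3, scipy 1.17.1 and matplotlib 3.10.9, and the comparison was tested on simulated data. With 1 library, precision is given by exact 95% intervals. Alternatives were other limits on CD3 and ribosomal UMIs, on the contig rule, on depth and on genes, means over cells, thinning to the UMI limit, subtraction of free RNA, and, added after the data were seen, leaving out Trdc-positive members or members with 2 beta chains.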

Additional observations from a re-analysis of the deposited data

Results flagged for a closer look

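Delta chain RNA was also found outside the members. The 617 barcodes that reached the UMI limit but lay under the ribosomal limit held 18 Trdc UMIs, or 0.0954 per 10000 (0.0565 to 0.151). The 59 B cells held none, with an upper limit of 0.139 per 10000, so the B cells do not separate this level from free RNA. Of these barcodes 3 had at least 2 Trdc UMIs (0.486%, 0.100% to 1.41%), with 2 each and totals of 4292, 3099 and 1942 UMIs. Their ribosomal shares were 5.43%, 6.16% and 3.86%, and none had a clonotype. In barcodes from 200 UMIs to below the limit, 0 of 1908 had at least 2 Trdc UMIs.

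The contig table held 11 contigs of the delta chain in 11 barcodes, although it is built for alpha and beta chains. None was productive, 9 joined an alpha constant gene, 7 lay in clonotyped cells and 0 in members.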

How the results depend on the processing

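Of 53 alternative values for 7 results, 32 stayed within the interval of the reported value, or within 1.5 times for counts of genes, and 21 moved. The share of CD3-positive cells without a clonotype became 6.46% with at least 5 CD3 UMIs, 1.71% when any contig ruled a cell out and 11.5% at 2000 to 4000 UMIs. The share of members with at least 2 Trdc UMIs became 4.17% after thinning to the UMI limit and 4% (1 of 25) at 2000 to 4000 UMIs. Trbc1 and Trbc2 became 5.63 per 10000 at 2000 to 4000 UMIs. Trdc with the Tcrg-C genes, 3.57 per 10000 as reported, became 2.48 without any contig, 0.844 at 2000 to 4000 UMIs, 2.67 as a mean over cells and 0.649 without the Trdc-positive members. Its ratio to clonotyped cells, 21.2 as reported, was 14.8, 12.6, 17.3 and 3.86 in these cases. The NK list became 8.74 at a ribosomal share of at least 20%, 7.26 without any contig and 8.83 without the Trdc-positive members. Genes past 2-fold higher, 191 of 8282 (2.31%) as reported, numbered 847 of 8160 (10.4%) without any contig. They numbered 44 of 2330 (1.89%) at 2000 to 4000 UMIs and 434 of 9935 (4.37%) with at least 20 UMIs a gene. Those lower, 504 of 8282 (6.09%) as reported, numbered 817 of 7629 (10.7%) at a ribosomal share of at least 20%. Without any contig they numbered 2182 of 8160 (26.7%), and at 2000 to 4000 UMIs 233 of 2330 (10%). With at least 20 UMIs a gene they numbered 967 of 9935 (9.73%), and without the Trdc-positive members 780 of 8239 (9.47%). The groups compared hold 14 members without any contig, 25 at 2000 to 4000 UMIs and 57 without the Trdc-positive members. The causes of these shifts were not tested. No member under 3000 UMIs had 2 Trdc UMIs, and thinning lost most such calls, so a member without Trdc is not shown to lack it. With 1 mouse, nothing here tells how members vary between mice. No paired analysis was possible because the series part analysed holds 1 library.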

Other observations

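Gamma delta genes were also found in clonotyped cells. Trgv2 had a UMI in 60 of the 804, in 45 of 463 with CD8 RNA only (9.72%, 7.18% to 12.8%), in 1 of 212 with Cd4 only (0.472%, 0.0119% to 2.60%), in 14 of 98 with neither (14.3%, 8.04% to 22.8%) and in 0 of 31 with both. The CD8 cells had a median of 7797 UMIs, the Cd4 cells of 4373.5 and the cells with neither of 3446.5, so the shares were not read at equal depth. Pooled, Trgv2 stood at 0.363 UMIs per 10000 (0.304 to 0.431) with CD8 only, at 0.0594 (0.0218 to 0.129) with Cd4 only and at 1.21 (0.903 to 1.59) with neither.

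At least 2 Trdc UMIs were found in 5 clonotyped cells. Of these 4 had both a productive alpha and a productive beta contig, 3 had a gamma V UMI and none had 2 productive beta contigs of at least 2 UMIs.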
